A study of Mus musculus with 26 samples.

Results

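The nuclear-encoded genes of the respiratory chain and ATP synthase were followed in haematopoietic stem cells (HSCs) of mice with the myeloproliferative driver JAK2V617F, with loss of Ezh2, or with both. Members were chosen by symbol alone: Ndufa, Ndufb, Ndufc, Ndufs and Ndufv genes with a number for complex I, Sdha to Sdhd for complex II, symbols that begin with Uqc for complex III, Cox4 to Cox8 for complex IV and Atp5 for complex V. Of 85 such symbols in a table of 23416 genes, 79 reached an RPKM of at least 1 in at least 5 of 26 libraries and could be tested, among 12116 genes in all. Complex I gave 35 of 37 symbols, complex II 4 of 4, complex III 9 of 9, complex IV 14 of 18 and complex V 17 of 17. RPKM scales a gene's reads by gene length and by the library's total, so it sets levels of different genes on one scale per length.

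The respiratory chain passes electrons from NADH (complex I) and succinate (complex II) through ubiquinone, complex III and cytochrome c to oxygen (complex IV). The pumping complexes build the proton gradient that complex V, the ATP synthase, uses to make ATP. Most subunits are encoded in the nucleus and imported, while a few core subunits are encoded in mitochondrial DNA. Long-term HSCs are known for a mostly quiescent, glycolytic state, with oxidative phosphorylation engaged on activation and differentiation.

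The groups were control (genotype label CTR, n = 5 libraries), JAK2V617F (n = 7), Ezh2 loss (n = 7) and the double mutant with JAK2V617F and Ezh2 loss (n = 7), whose label spells the mutation JAK2V17F. HSCs were sorted from bone marrow by FACS and turned into full-length cDNA libraries by Smart-Seq2, a protocol for very small RNA inputs. The alleles' design, the Cre driver, age, sex, strain, cells per library and any treatment that all groups share are not stated in the sources at hand. The titles put the sample number before the group code in 15 libraries (number-first: 4 control, 2 JAK2V617F, 2 Ezh2 loss and all 7 double-mutant) and after it in 11 (number-last: 1 control, 5 JAK2V617F and 5 Ezh2 loss). What this title style stands for is not stated, and it was fitted as a term beside genotype throughout. The labels do not say whether the libraries of a group are from different mice, and the p-values therefore reflect library-to-library spread alone, which may be technical.

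Library depth, recovered from the RPKM steps, was between 7.82 M and 29.2 M reads, where M is 10 to the power of 6. Number-first libraries averaged 19.9 M and number-last libraries 11.8 M, and 9223 to 11007 genes reached an RPKM of 1. All 10 HSC markers looked for, among them Kit, Ly6a, Slamf1, Procr, Mecom and Fgd5, were detected in each group. Neutrophil genes ran high in some libraries of a sorted stem cell population: their summed level was 43.5 to 388 RPKM in control, with Lcn2 and Retnlg at 0 in all 5, 72.9 to 17655 in JAK2V617F, 404 to 38184 in Ezh2 loss and 47.0 to 52098 in the double mutant. Ezh2 itself had medians of 29.5 RPKM in control (8.11 to 33.2), 24 in JAK2V617F (20.4 to 40.2), 15.4 in Ezh2 loss (5.15 to 31.4) and 15.1 in the double mutant (6.71 to 31.4). The ranges overlapped, and neither Ezh2 loss (log2 difference -0.44, SE 0.45, limma adjusted p = 0.954) nor the double mutant (-0.43, SE 0.42, adjusted p = 0.958) passed against control. Where the reads fall in Ezh2 was not analysed here, so this level does not check which part of the gene is lost. Jak2, whose mutation changes 1 base and need not move its level, had medians of 17.0, 14.5, 13.5 and 11.6 RPKM in the same order.

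Respiratory chain genes were among the strongly expressed genes of these cells. The median member had a mean level of 367.77 RPKM over 26 libraries, against 11.21 over all genes tested, and 68 of 79 members averaged at least 100 RPKM. By complex the median member level was 367.77 RPKM for complex I, 266.87 for II, 499.47 for III, 350.26 for IV and 388.31 for V. In complex I the accessory subunits, which surround the catalytic core, stood above the core itself: the 7 nuclear core subunits, among them Ndufv1, Ndufs1 and Ndufs8, had a median of 151.8 RPKM, and the other 28 members 377.7. The highest levels in complex I were those of Ndufa4 (1325 RPKM), first assigned to complex I and now placed in complex IV, and of the distal membrane arm subunit Ndufb8 (952 RPKM). The lowest was that of Ndufs1 (51.8 RPKM), the largest iron-sulfur subunit.

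In complex II the iron-sulfur subunit Sdhb (424 RPKM) and the membrane anchor Sdhd (339 RPKM) stood highest and the flavoprotein Sdha lowest (174 RPKM). These are means over both title styles, and some orders differ within one: in number-last libraries Sdhc (164 RPKM) was below Sdha (187) and Atp5j2 (461) below Atp5e (635), and in number-first libraries Uqcr10 (729) was below Uqcrb (762) and Ndufb8 (841) below Ndufa3 (917). Complex III ran from the small subunits Uqcr11 (954 RPKM) and Uqcr10 (771 RPKM) down to Uqcc (27 RPKM), an assembly factor that the symbol rule brings in. Complex IV was led by Cox4i1 (1284 RPKM) and Cox6b1 (1092 RPKM), and complex V by Atp5j (762 RPKM, coupling factor of the peripheral stalk) and Atp5j2 (637 RPKM, a small membrane subunit). Atp5s and Atp5sl carry the ATP synthase prefix but are not subunits of the enzyme, and averaged 56.4 and 18.3 RPKM. Levels across the members bore only a weak relation to exon length (78 genes with a length, r = -0.203 and rho = -0.303 on log10 scales, as a description across genes).

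**Figure D1:**
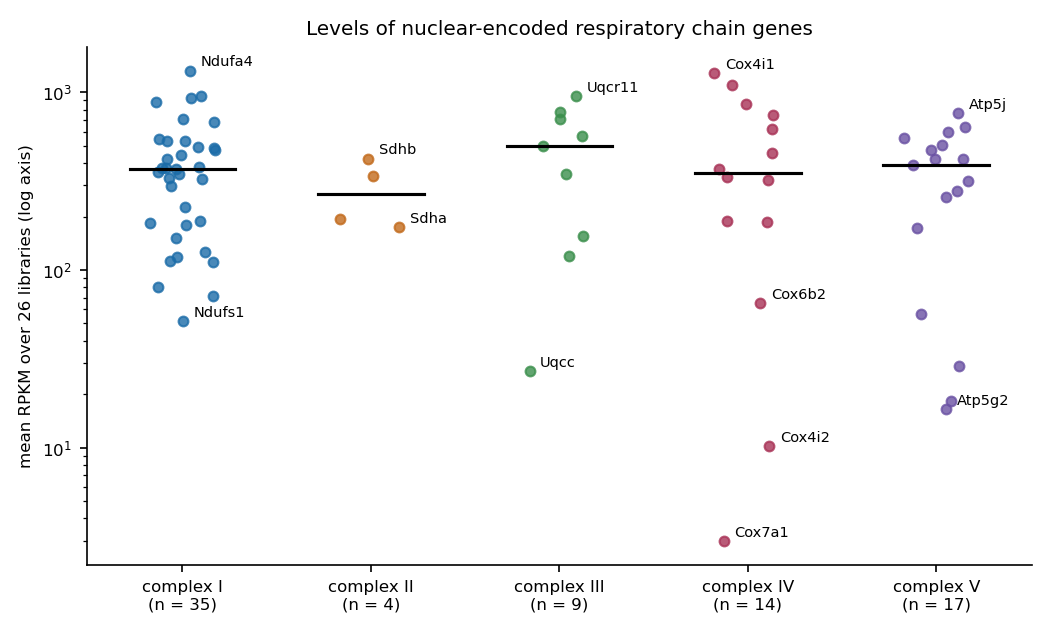
Mean RPKM over 26 libraries (log axis) of each of the 79 members, by complex; the black bar is the median of the complex. The medians lie between 266.87 RPKM (complex II) and 499.47 RPKM (complex III), and the lowest points are the isoform genes Cox7a1 (2.97 RPKM) and Cox4i2 (10.2 RPKM).

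Paralogous isoforms were used unevenly, with the widely expressed isoform far above the tissue-restricted one. Cox4i1 averaged 1284 RPKM against 10.2 for Cox4i2, the isoform known from lung and from low oxygen. Cox6a1 stood at 862 RPKM against 1.43 for the muscle isoform Cox6a2, whose whole signal came from 1 double-mutant library at 37.3 RPKM, with 0 in the other 25. Cox6b1 averaged 1092 RPKM against 64.9 for Cox6b2, and Cox7b 322 against 0.195 for Cox7b2. Cox8a averaged 740 RPKM, while Cox8b averaged 0.00614 and Cox8c was listed at 0 in all 26 libraries. Among the Cox7a genes, Cox7a2 averaged 453 RPKM, the supercomplex factor Cox7a2l 190 and the muscle isoform Cox7a1 2.97. Of the genes for the c subunit of ATP synthase, which differ in their import presequence, Atp5g3 averaged 422 RPKM, Atp5g1 173 and Atp5g2 16.6. Ndufa4 stood at 1325 RPKM against 0.00247 for its paralogue Ndufa4l2. The 6 symbols that missed the expression threshold were Cox6a2, Cox7b2, Cox8b, Cox8c, Ndufa4l2 and Ndufs5, an accessory subunit of complex I that averaged 0.04 RPKM and is taken up again with the copied genes.

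The spread over libraries differed widely between members. The smallest coefficients of variation were those of Ndufv2 (13.5%), Sdhd (16.7%) and Atp5c1 (16.7%), which encode a flavoprotein-module subunit of complex I, an anchor of complex II and the central stalk of ATP synthase. The largest were those of Cox7a1 (199%), Atp5g2 (86.5%) and Cox4i2 (78.2%). After genotype and title style were fitted, the most alike pair of each complex over 26 libraries was Ndufa11 with Ndufs8 (residual r = 0.784), Sdhb with Sdhd (0.447), Uqcr10 with Uqcr11 (0.707), Cox6a1 with Cox6b1 (0.835) and Atp5k with Atp5j2 (0.781). These are the highest of many pairs and share libraries and depth. Pooled, pairs within a complex had a median residual r of 0.322 over 864 pairs, and pairs across complexes 0.294 over 2217 pairs. Complex I gave 595 of the 864 pairs, and the complexes differed. Their medians were 0.311 (I), -0.057 (II, 6 pairs), 0.054 (III, 36 pairs), 0.497 (IV, 91 pairs) and 0.337 (V, 136 pairs).

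Promoter sequences of 300 bases (250 before and 50 past the start, RefSeq, GRCm38.p6) were matched for 70 of the 85 symbols. NRF1, the ETS factor GABPA (also named NRF2) and YY1 are known regulators of nuclear respiratory genes, and simple forms of their motifs were searched on both strands, each counted on its own also where matches overlapped. The NRF1 palindrome was in the promoters of 17 members (24.3%) against 5.19% of 27025 genes. CCGGAAG (GABPA) was in 16 (22.9%) against 9.93%, and AAGATGGCG (YY1) in 8 (11.4%) against 1.64%. At least 1 of the motifs was in 35 (50%) against 15.1%. A gene counted if any of its promoters matched, and the 27025 are all genes with a promoter sequence, expressed here or not. The 250 bases before the start are shown for a member with an NRF1 and a GABPA match (Sdhd, chr9:50603850-50604099, minus strand), one with a GABPA match next to the start (Uqcrh, chr4:116075071-116075320, minus strand) and one with no match (Cox7b, chrX:106015450-106015699, plus strand). Sequences run 5′ to 3′ along the gene and capitals mark the matches, CCGGAAG reading as its reverse complement.
Sdhd: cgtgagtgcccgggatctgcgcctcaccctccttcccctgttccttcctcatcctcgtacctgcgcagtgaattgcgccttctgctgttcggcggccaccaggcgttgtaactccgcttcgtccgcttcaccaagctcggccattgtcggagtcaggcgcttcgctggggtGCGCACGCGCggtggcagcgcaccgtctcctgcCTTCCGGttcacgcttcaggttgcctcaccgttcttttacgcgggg
Uqcrh: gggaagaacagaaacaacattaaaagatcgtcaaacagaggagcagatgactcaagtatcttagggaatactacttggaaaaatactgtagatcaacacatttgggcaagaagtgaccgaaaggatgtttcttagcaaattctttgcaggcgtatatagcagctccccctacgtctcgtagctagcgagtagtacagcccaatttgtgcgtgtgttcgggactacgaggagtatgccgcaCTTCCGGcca
Cox7b: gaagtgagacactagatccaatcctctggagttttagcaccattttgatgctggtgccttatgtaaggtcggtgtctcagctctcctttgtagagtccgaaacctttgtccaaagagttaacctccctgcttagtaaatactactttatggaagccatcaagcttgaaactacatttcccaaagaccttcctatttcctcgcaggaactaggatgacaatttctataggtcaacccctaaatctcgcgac
A match is a description of the letters in this window and not a measured binding site.

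No member passed in any genotype comparison. With title style fitted, most members had a fitted level a little lower in the double mutant than in each other group. All 7 double-mutant libraries are number-first, against 2 in each single mutant, so the differences from the single mutants lean on the style term. Members together held 5.56% ± 0.263 (SD, n = 5) of a library's summed RPKM in control, 5.67% ± 0.457 (n = 7) in JAK2V617F, 5.40% ± 0.502 (n = 7) in Ezh2 loss and 4.92% ± 0.329 (n = 7) in the double mutant, a share of RPKM and not of reads. The double-mutant libraries ran from 4.49% to 5.36% and the control libraries from 5.16% to 5.83%, so the groups overlapped. In these bulk libraries fewer cells of a type and less RNA per cell cannot be told apart.

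In the double mutant against control, 0 of 79 members passed at limma adjusted p under 0.05, where 0.00825% of all genes tested did (1 gene, upward). At an unadjusted p under 0.05, 21 members were lower and 2 higher, which is 23 of 79 against 6.17% of all genes. Among the 1196 other genes with a mean of at least 100 RPKM, 129 were lower and 35 higher at that threshold. The fitted difference was below 0 for 63 members, against 50.5% of all genes. The median member difference was -0.20 on the log2 scale, against -0.01 for all genes and -0.10 for the 1196 other genes with a mean of at least 100 RPKM, of which 65.6% were below 0. The count at unadjusted p went from 23 to 13 without control replicate 5, the number-last control, and to 17 in number-first libraries alone, where the median was -0.15 and 62 members were below 0. Under quantile normalization the median was -0.08 and 49 members were below 0, with complex medians of -0.08 (I), 0.16 (II), -0.22 (III), -0.09 (IV) and -0.07 (V).

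Against JAK2V617F, 0 members passed in the double mutant (0.033% of all genes did), 26 were lower and 1 higher at unadjusted p under 0.05 (8.06% of all genes), and the median was -0.27. The number at unadjusted p went from 27 to 10 without JAK2V617F replicate 1, to 15 under quantile normalization and to 17 with only the compared groups fitted. Without the title style term it was 41, with 4 members past the adjusted threshold and 55 rather than 69 below 0. Against Ezh2 loss, 0 members passed (0% of all genes did), 18 were lower and 1 higher at unadjusted p under 0.05 (7.84% of all genes), and the median was -0.24. That number went from 19 to 10 without Ezh2 loss replicate 3, and to 12 with only the compared groups, with quantile normalization or with a neutrophil covariate. The share of members fitted below 0 was 87.3% and 82.3% in these comparisons, against 49.2% and 49.8% of all genes and 65% and 57.9% of the 1196 other genes of at least 100 RPKM. Of those 1196, 190 were lower and 58 higher at unadjusted p under 0.05 against JAK2V617F, and 116 lower and 65 higher against Ezh2 loss. All 3 comparisons of the double mutant use the same double-mutant libraries.

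The single mutants were set against control in the same fit, and how close they lie to it was not tested. In JAK2V617F 0 members passed (0% of all genes did), 1 was higher and 1 lower at unadjusted p under 0.05 (4.14% of all genes), and the median member difference was 0.07 with 21 members below 0 (52.1% of all genes). In Ezh2 loss 0 members passed (0% of all genes did), 4 were higher and 1 lower (6.07% of all genes), and the median was 0.03 with 35 below 0 (52.1% of all genes). Of the 1196 other genes of at least 100 RPKM, 43.8% were below 0 in JAK2V617F (median 0.04) and 55.4% in Ezh2 loss (median -0.03). Between JAK2V617F and Ezh2 loss, which hold equal numbers of each title style, 0 members passed (0.099% of all genes did), 5 were higher and 2 lower in JAK2V617F (8.27% of all genes), and the median was 0.07 with 26 below 0 (49.9% of all genes). The 1196 other genes of at least 100 RPKM leaned the same way, with a median of 0.08 and 37.3% below 0. In the interaction, both single-mutant differences are taken from that of the double mutant. There 0 members passed (0% of all genes did), and 13 were lower and 1 higher (6.09% of all genes). The median was -0.32 against 0.04 for all genes, with 64 members below 0 (48.3% of all genes). The 1196 other genes of at least 100 RPKM had a median of -0.10 with 57.4% below 0. The members at unadjusted p under 0.05 numbered from 4 to 21 when 1 library was left out. Under the other alternatives they numbered from 6 to 33. The member median ran from -0.43 to -0.20 and from -0.42 to -0.09 in the same order.

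Marker sums and depth, which were not tested against genotype, stand beside these differences. The summed HSC markers were 1337 to 1777 RPKM in the double mutant and 785 to 1526 in control, the summed erythroid markers 1937 to 8326 in Ezh2 loss and 1983 to 2570 in control (Hba-a1, Hba-a2 and Hbb-b2 at 0 in both, while the globin row Beta-s reached 5786 RPKM over the series and Car2 was at 1532 or more in all 26 libraries), and mean depth was 21.1 M reads in the double mutant, 17.5 M in control, 13.5 M in JAK2V617F and 14 M in Ezh2 loss. Summed B cell markers were at 50.1 to 220 RPKM, with Pax5 at 0 and Cd79b at 50.1 to 192 in all 26 libraries. T and NK cell markers were at 0.555 to 618 RPKM, with Cd3e at 0 in all 26 and Nkg7 at up to 618. Summed monocyte and macrophage markers were 11.3 to 82.3 RPKM in control, 17.6 to 78.8 in JAK2V617F, 16.3 to 456 in Ezh2 loss and 4.73 to 1133 in the double mutant. With the neutrophil genes as a covariate, 26 members stood at unadjusted p under 0.05 in the double mutant against control, the median was -0.24 and 66 were below 0. The part of the erythroid and monocyte genes and of HSC marker level in these differences was not tested.

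**Figure D2:**
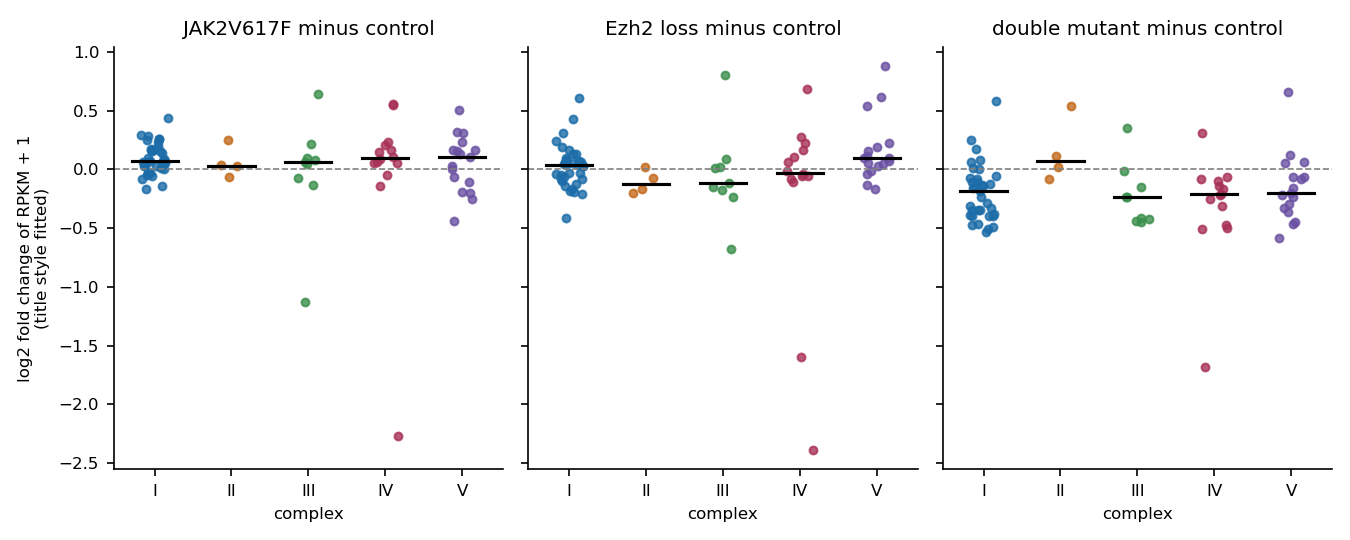
Fitted log2 fold change of RPKM + 1 for each of the 79 members against control, by complex, with title style fitted; black bars are complex medians. Points lie on both sides of 0 in both single mutants, with 21 of 79 below 0 in JAK2V617F and 35 in Ezh2 loss. In the double mutant the medians of complexes I, III, IV and V lie between -0.18 and -0.24 while that of complex II is 0.07.

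In complex I, 28 of 35 members were fitted below 0 in the double mutant against control, with a median of -0.18 and with 10 lower and 1 higher at unadjusted p under 0.05. For this and the other complexes, the shares over all genes were 50.5% below 0 and 6.17% at unadjusted p under 0.05. Of the 1196 other genes of at least 100 RPKM, 65.6% were below 0. The 7 core subunits had a median of 0.01 with 3 below 0, the 10 Ndufb subunits of the distal membrane arm -0.19 with 9 below 0, and the 18 other accessory members -0.34 with 16 below 0. These roles were grouped after the values were seen and carry no test. Ndufa4 (chr6:11900292-11907497) was at 1487, 1239, 1738, 1697 and 1364 RPKM in the control libraries, the last being number-last. It ran from 1012 through a median of 1117 to 1297 RPKM in the double mutant, 1066 through 1306 to 1914 in JAK2V617F and 1020 through 1407 to 1597 in Ezh2 loss. Only the lowest control fell inside the double-mutant range, and the ranges of both single mutants overlapped most of it and reached above it. Its fitted difference was -0.46 (SE 0.12, 95% interval -0.70 to -0.23, limma adjusted p = 0.407) against control, -0.54 (SE 0.13, adjusted p = 0.118) against JAK2V617F and -0.44 (SE 0.13, adjusted p = 0.363) against Ezh2 loss. With libraries weighted by their quality (array weights) the value against JAK2V617F was -0.58 with an adjusted p of 0.0401, the 1 member that then passed.

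Ndufb8 (chr19:44548572-44555440) was at 819, 830, 684, 849 and 1133 RPKM in control and ran from 624 through 706 to 1094 in the double mutant, 786 through 1065 to 1301 in JAK2V617F and 944 through 1027 to 1219 in Ezh2 loss. The groups overlapped throughout, and its difference from control was -0.07 in the double mutant (95% interval -0.34 to 0.20, adjusted p = 0.986, and 0.11 under quantile normalization) and 0.17 in each single mutant. Ndufb3, another distal arm subunit, had a difference of -0.59 (SE 0.17, adjusted p = 0.363) between the double mutant and Ezh2 loss. Ndufb11 had an interaction of -0.87 (SE 0.32, adjusted p = 0.753), with its highest level, 440 RPKM, in Ezh2 loss replicate 3. Ndufa10 ran from 157 through 245 to 268 RPKM in JAK2V617F and from 114 through 150 to 206 in Ezh2 loss, with a difference of 0.51 (adjusted p = 0.393). Neither gene's groups stood apart.

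In complex II, 1 of 4 members was fitted below 0 in the double mutant against control. The median was 0.07, though this median ran from -0.01 to 0.16 across processing alternatives. Sdhb (chr4:140961203-140979193) was at 322, 314, 245 and 274 RPKM in the number-first controls and 690 in the number-last control. It ran from 222 through 344 to 398 RPKM in the double mutant, 373 through 550 to 709 in JAK2V617F and 350 through 382 to 659 in Ezh2 loss. Control and double-mutant levels overlapped, and the fitted differences from control were 0.25 in JAK2V617F (95% interval -0.12 to 0.62), 0.02 in Ezh2 loss (-0.35 to 0.39) and 0.02 in the double mutant (-0.32 to 0.37, adjusted p = 0.993); the signs of the last pair turned under several alternatives. Sdha (chr13:74322254-74350280) was at 89.1, 176, 186, 115 and 182 RPKM in control and ran from 119 through 201 to 238 in the double mutant and 73.1 through 140 to 236 in Ezh2 loss. Its difference was 0.54 (SE 0.22, adjusted p = 0.712) against control and 0.74 (SE 0.24, adjusted p = 0.390) against Ezh2 loss, with overlapping libraries in both.

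In complex III, 8 of 9 members were fitted below 0 in the double mutant against control, and the exception was the Rieske protein. The 5 small subunits (Uqcrb, Uqcrq, Uqcrh, Uqcr10 and Uqcr11) were all among the 8, with a median of -0.42 and 4 of 5 at unadjusted p under 0.05, while the core proteins Uqcrc1 and Uqcrc2 had a median of -0.08. The median of the whole complex was -0.24, and -0.42 without control replicate 3. Uqcrh (chr4:116066965-116075071), the acidic hinge protein that lies beside cytochrome c1, was at 642, 579, 575, 794 and 884 RPKM in control. It ran from 395 through 470 to 668 RPKM in the double mutant, 624 through 858 to 958 in JAK2V617F and 570 through 850 to 931 in Ezh2 loss. Most double-mutant libraries lay below every control, with overlap at the top. The difference was -0.41 (SE 0.14, 95% interval -0.70 to -0.13, adjusted p = 0.586) against control, -0.52 (adjusted p = 0.308) against JAK2V617F and -0.50 (adjusted p = 0.381) against Ezh2 loss.

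Uqcrfs1 (chr13:30540308-30545362), the Rieske iron-sulfur protein that hands electrons from ubiquinol to cytochrome c1, was at 154, 108, 131, 112 and 70.1 RPKM in control. It ran from 160 through 186 to 196 RPKM in Ezh2 loss, 134 through 183 to 189 in JAK2V617F and 110 through 158 to 188 in the double mutant. The lowest Ezh2 loss library stood at 160 RPKM and the highest control library at 154 RPKM, and only 1 control is number-last. The other mutants overlapped with control. How many of all genes tested keep Ezh2 loss and control libraries apart was not counted. The fitted difference from control was 0.81 (SE 0.19, 95% interval 0.41 to 1.2, adjusted p = 0.308) in Ezh2 loss, 0.64 (SE 0.19, adjusted p = 0.980) in JAK2V617F and 0.36 (SE 0.18, adjusted p = 0.816) in the double mutant. Its interaction was -1.09 (SE 0.30, adjusted p = 0.694), so the double mutant stood below the sum of the single-mutant differences, without passing.

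In complex IV, 13 of 14 members were fitted below 0 in the double mutant against control, with a median of -0.21 and 3 lower at unadjusted p under 0.05. Cox7b (chrX:106015700-106022450), a small structural subunit, was at 416, 366, 395, 373 and 324 RPKM in control and ran from 214 through 276 to 391 in the double mutant, with a difference of -0.51 (SE 0.16, adjusted p = 0.530). Cox4i2 (chr2:152754173-152765037) was at 18.2, 16.6, 12.1, 17.8 and 31.5 RPKM in control. It was at 9.65, 4.61, 0, 5.69, 11.7, 0 and 10.9 RPKM in the double mutant, from 0 through 7.97 to 15.6 in JAK2V617F and from 0 through 10.3 to 27.5 in Ezh2 loss. It was the 1 member of 79 whose double-mutant libraries all lay below the number-first controls, a share of 1.27% against 0.38% of all genes, and no member lay wholly above them (0.338% of all genes did). The differences from control were -2.27 (SE 0.83, adjusted p = 0.999) in JAK2V617F, -2.39 (SE 0.83, adjusted p = 0.665) in Ezh2 loss and -1.69 (SE 0.76, adjusted p = 0.770) in the double mutant. Its main isoform Cox4i1 had a difference of -0.06 in the double mutant. Cox7a1 was listed at 0 in all 7 Ezh2 loss libraries and in 3 JAK2V617F libraries, with 6.59, 10.9, 13.4 and 24.6 RPKM in the others, all number-last (fitted difference 2.15, SE 0.70, adjusted p = 0.354, and 0 in number-first libraries alone).

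In complex V, 13 of 17 members were fitted below 0 in the double mutant against control, with a median of -0.20 and 4 lower at unadjusted p under 0.05. The medians were -0.08 for the 5 subunits of the F1 head and central stalk, -0.11 for the 4 of the peripheral stalk, -0.47 for the 3 c subunit genes and -0.33 for the 3 small membrane subunits. Atp5g3 (chr2:73908447-73911326) was at 640, 434, 607, 620 and 295 RPKM in control and ran from 285 through 389 to 454 in the double mutant. The number-last control lay within the double-mutant range and 3 of the 4 number-first controls above it, with a difference of -0.58 (SE 0.18, adjusted p = 0.508) against control and -0.72 (SE 0.20, adjusted p = 0.268) against JAK2V617F. Atp5e, the epsilon subunit of the central stalk, ran from 340 through 517 to 604 RPKM in the double mutant and 502 through 705 to 1007 in JAK2V617F, with a difference of -0.68 (SE 0.19, adjusted p = 0.245, and 0.0313 without the title style term). Atp5k, a small membrane subunit that takes part in ATP synthase dimers, differed by -0.67 (SE 0.19, adjusted p = 0.363) between the double mutant and Ezh2 loss. Atp5l, another of these, had a difference of 0.61 in Ezh2 loss against control (adjusted p = 0.802) and 0.51 in JAK2V617F (adjusted p = 0.999). Atp5s, no subunit of the enzyme, had a difference of -0.74 between JAK2V617F and Ezh2 loss (adjusted p = 0.434). Atp5h had an interaction of -0.66 (SE 0.24, adjusted p = 0.753), which was 0.98 without the title style term. The median of complex V against JAK2V617F was -0.27 with title style fitted and 0.33 without it, and against Ezh2 loss -0.34 and 0.15.

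**Figure D3:**
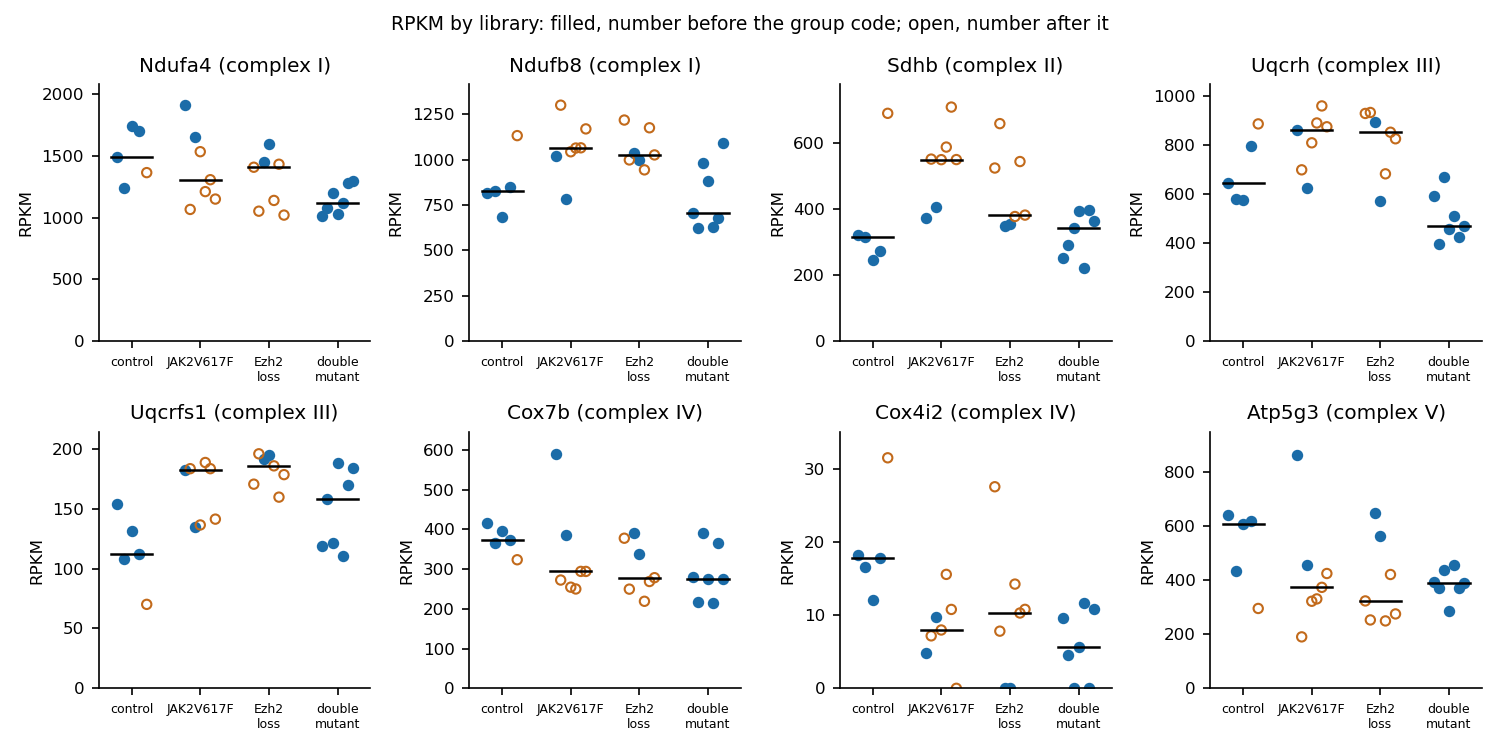
RPKM of 8 members in each of the 26 libraries by group; filled points are number-first and open points number-last libraries, and the black bar is the group median. Ndufa4 and Uqcrh sit lower in the double mutant with overlap, and Sdhb and Atp5g3 separate by title style within groups. Uqcrfs1 sits at 160 to 196 RPKM in Ezh2 loss and at 70.1 to 154 RPKM in control.

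More members passed for title style than in any genotype comparison. With genotype fitted, 25 of 79 members (31.6%) passed between number-first and number-last libraries, 17 higher and 8 lower in number-first libraries, against 11% of all genes (931 higher, 400 lower) and 26.9% of the 1196 other genes of at least 100 RPKM. At unadjusted p under 0.05 the count was 37, against 23.4% of all genes, and 31 members were fitted below 0, against 39.1% of all genes. Higher calls were 68% of the members called, but 57.1% with median ratio size factors, 53.6% with quantile normalization, 53.6% with TPM and 88.9% with the number of detected genes as a covariate (16 higher and 2 lower, where 66.4% of the calls over all genes were higher). The median difference of all genes was 0.17 with the deposited scaling and -0.05 after quantile normalization. Beside these calls, number-last libraries were shallower (means of 11.8 M against 19.9 M reads), and with that covariate 18 members passed, 14 of them among the 25. The part of depth in the style difference was otherwise not tested.

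By complex the calls were 9 higher and 0 lower of 17 in complex V, 5 higher and 1 lower of 14 in IV, 1 higher and 2 lower of 9 in III, 0 higher and 1 lower of 4 in II, and 2 higher and 4 lower of 35 in I. The largest differences were those of Atp5g2 and Atp5g1, which encode the ATP synthase c subunit, and of Cox7c. Cox7c (chr13:86044816-86046904), a small membrane subunit of complex IV, ran from 178 through 293 to 445 RPKM in number-first and from 30.1 through 44.8 to 66.3 in number-last libraries (2.95, SE 0.17, adjusted p = 4.95e-14). Atp5g2 (chr15:102662864-102672352) ran from 15.7 through 26.2 to 45.7 and from 0.411 through 1.40 to 3.83 RPKM (3.77, SE 0.32, adjusted p = 5.43e-10). Atp5g1 (chr11:96068852-96075670) ran from 159 through 248 to 342 and from 40.6 through 85.2 to 103 RPKM (1.85, SE 0.18, adjusted p = 4.76e-09). All 3 separated the title styles without overlap, in every genotype that holds both.

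Uqcrb (chr13:66900617-66905378), a small complex III subunit near the ubiquinone site, ran from 450 through 770 to 1108 RPKM in number-first and from 223 through 316 to 409 in number-last libraries (1.52, SE 0.13, adjusted p = 7.3e-10). Atp5h (chr11:115415689-115419962), the d subunit of the peripheral stalk, ran from 430 through 578 to 843 and from 205 through 286 to 349 RPKM (1.34, SE 0.12, adjusted p = 1.75e-09). Cox7a2l (chr17:83501918-83517330) went the other way, from 84.9 through 114 to 182 RPKM in number-first and 250 through 271 to 371 in number-last libraries (-1.26, SE 0.16, adjusted p = 1.07e-06). In all, 5 members stood wholly higher in number-first libraries (1.21% of all genes did) and 1 wholly lower (0.545% of all genes did).

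Among the other members called, Cox5b (0.82), Cox6c (0.65), Cox7b (0.53) and Cox8a (0.41) of complex IV were higher in number-first libraries, as were Atp5d (1.0), Atp5g3 (0.99), Atp5j2 (0.89), Atp5a1 (0.52), Atp5j (0.41) and Atp5b (0.40) of complex V and Ndufc1 (0.71) and Ndufa4 (0.37) of complex I, with limma adjusted p from 5.51e-05 to 0.0478. Those lower included the complex I members Ndufa8 (-0.60), Ndufb7 (-0.57) and Ndufs8 (-0.42), the complex III core proteins Uqcrc1 (-0.73) and Uqcrc2 (-0.52) and Sdhb (-0.69, SE 0.15, adjusted p = 0.0017). Sdhb ran from 222 through 344 to 405 RPKM in number-first and from 377 through 550 to 709 in number-last libraries. The fall in calls to 19 without JAK2V617F replicate 1, the number-first library with the highest level of several complex IV and V members, left 12 higher and 7 lower.

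**Figure D4:**
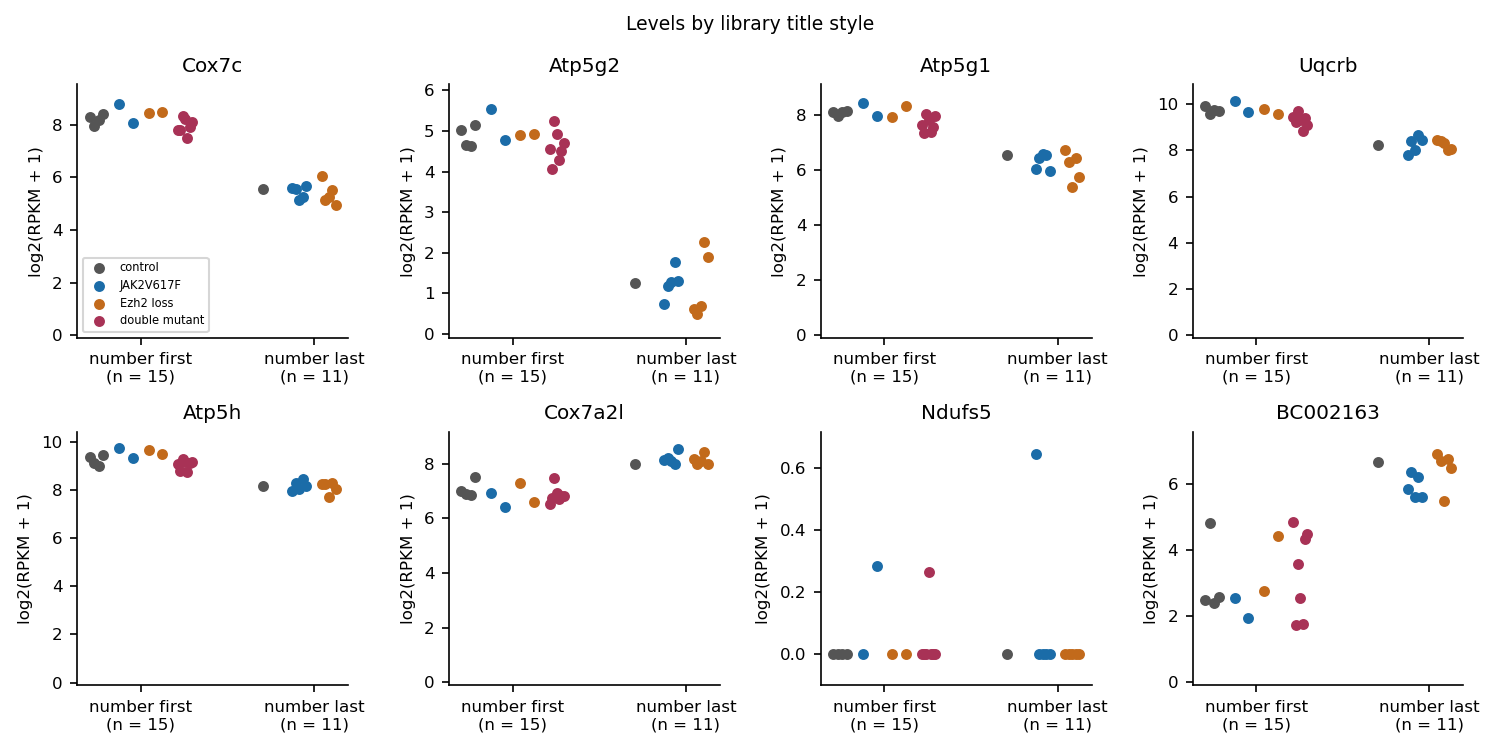
Level on the log2(RPKM + 1) scale of 6 members, of Ndufs5 and of its copy BC002163 in number-first (n = 15) and number-last (n = 11) libraries, coloured by genotype. Cox7c, Atp5g2, Atp5g1, Uqcrb and Atp5h lie wholly higher in number-first libraries, Cox7a2l wholly lower, and BC002163 is at 43.3 to 118 RPKM in number-last libraries.

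Many nuclear respiratory genes have processed pseudogenes, copies of their mRNA pasted into the genome, and reads from a shared stretch can be counted for either. In GENCODE M21 transcripts, 17 of 78 members with a match share more than 10% of their stretches of 50 bases with another gene. Among these 17, 8 (47.1%) passed for title style and 6 (35.3%) differed by more than 1 on the log2 scale: Atp5g2 (38.35% shared), Uqcrb (25.54%), Cox7c (22.11%), Atp5h (19.93%), Cox7a2l (13.83%) and Atp5g1 (11.1%). Of the 31 members with none shared, 8 (25.8%) passed and 1 (3.23%) differed by more than 1, and of the 30 in between, 9 (30%) passed and 1 (3.33%) did. Over all genes tested the shares above 1 were 20.6% with more than 10% shared, 20.5% with none and 15.2% in between. The shares called over all genes were 16%, 10.7% and 9.38% in the same order. Ndufb6 (31.56% shared, difference 0.10) and Ndufa13 (28.54%, -0.29), which share mostly with the protein-coding genes Smim27 and Tssk6, did not pass. Ndufb4 (18.27%, 0.17), Ndufa12 (17.74%, -0.07) and Ndufs3 (17.86%, 0.29), which share mostly with processed pseudogenes, did not pass either. Uqcrc2 (17.65%, -0.52) and Cox5b (11.94%, 0.82) passed and share with Pdzd9 and Gm11273, both annotated as protein-coding. Whether shared copies account for the style difference was not tested. Across the 78 members, which come from the same libraries, the size of the style difference and the share had r = 0.458 and rho = 0.055, as a description. Levels of members with such copies are uncertain to the extent that the authors' counting could split their reads, and whether the styles were counted alike is not stated in the sources at hand.

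**Figure D5:**
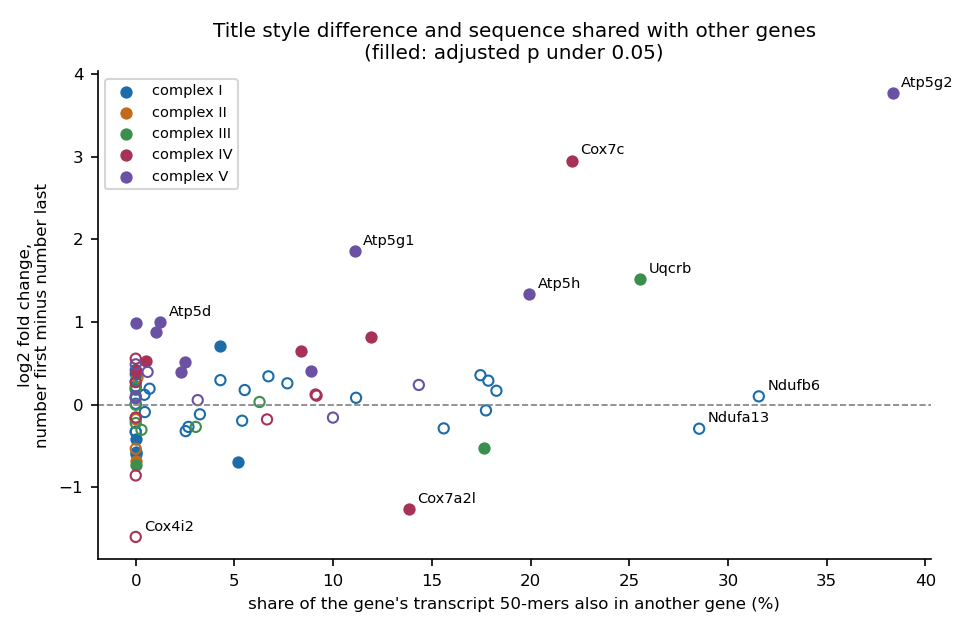
Style difference (log2, number-first minus number-last) of 78 members against the percent of their transcript 50-mers found in another gene; filled points pass at adjusted p under 0.05. Atp5g2, Cox7c, Uqcrb, Atp5h, Atp5g1 and Cox7a2l lie beyond 1 with over 10% shared. Ndufb6 and Ndufa13, which share mostly with protein-coding genes, and Ndufb4 and Ndufa12, which share mostly with processed pseudogenes, lie near 0.

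Ndufs5, which missed the filter, was near 0 beside a processed copy. Its gene (chr4:123712710-123718202, minus strand) was listed at 0 in 23 of 26 libraries and at most at 0.561 RPKM, while its processed pseudogene BC002163 (chr16:42955631-42955949, plus strand) was at 10.8 RPKM ± 9.34 (SD, n = 15) in number-first and 78.7 ± 26.9 (n = 11) in number-last libraries (-3.35, SE 0.46, adjusted p = 4.28e-06). BC002163 ran from 2.32 through 4.99 to 27.5 RPKM in the first and from 43.3 through 80.9 to 118 in the second, with no overlap. The coding sequences are the same at 316 of 318 bases (99.37%). A window of 90 coding bases that holds 1 of the differences, A105G (the Ndufs5 base first, counted from 1 at the coding start, then the BC002163 base) is shown. It runs from base 105 to 194 in the sense direction (GENCODE M21, GRCm38), and the capital marks the base that differs.
Ndufs5: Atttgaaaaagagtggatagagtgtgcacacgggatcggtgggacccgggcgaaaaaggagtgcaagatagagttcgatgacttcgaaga
BC002163: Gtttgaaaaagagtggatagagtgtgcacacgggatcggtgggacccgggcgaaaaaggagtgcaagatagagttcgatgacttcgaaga
Cox7c and its processed pseudogene Gm12338 (chr11:75599763-75599954, minus strand) have the same letters at 189 of 189 coding bases, and Atp5g2 and Gm10175 at 438 of 438. The first 90 bases of the Cox7c coding sequence are therefore also those of the copy, and no base is in capitals because none differs.
Cox7c: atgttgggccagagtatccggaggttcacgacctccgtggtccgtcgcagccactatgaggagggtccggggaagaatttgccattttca
The row of another Cox7c copy, Gm10012, was at 0.466 RPKM ± 0.589 in number-first and 0.497 ± 0.611 in number-last libraries and did not separate the styles.

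In the double mutant against control the median difference of tested members was -0.17 with an NRF1 match (16 genes) and -0.21 without (51 genes), -0.16 and -0.22 for GABPA, and -0.15 (8 genes) and -0.22 (59 genes) for YY1. Between the title styles the medians with and without a match were 0.08 and 0.12 for NRF1, 0.06 and 0.18 for GABPA, and 0.33 and 0.10 for YY1. None of these differences was tested. The promoters of Uqcrh and Cox7b printed above, one with and one without a match, belong to members with differences of -0.41 and -0.51.

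The wider pathway was followed through 5 lists outside the symbol rule, and in each of the 7 genotype comparisons 0 of their genes passed. In the double mutant against control, the 12 further subunits and electron carriers (among them Cyc1, Cycs, Ndufab1 and the electron transfer flavoprotein genes) had a median of -0.20 with 10 below 0 and 3 lower at unadjusted p under 0.05. The 41 assembly factors had a median of -0.04 with 26 below 0, the 21 regulators of mitochondrial biogenesis and mitochondrial DNA expression 0.06 with 10 below 0, the 14 tricarboxylic acid cycle enzymes 0.04 with 5 below 0, and the 13 genes of coenzyme Q synthesis -0.25 with 9 below 0. At unadjusted p under 0.05 these were 1 higher and 2 lower assembly factors, 1 lower regulator, and none of the cycle enzymes or coenzyme Q genes. Over all genes tested, 50.5% were below 0 and 6.17% stood at unadjusted p under 0.05 in this comparison. Of the 1196 other genes of at least 100 RPKM, 65.6% were below 0. The 13 mitochondrially encoded subunits were not analysed here.

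Some genes of these lists passed for title style. Cycs, which encodes somatic cytochrome c, was higher in number-first libraries (2.61, SE 0.36, adjusted p = 3.89e-06), as were the ATP synthase subunit Usmg5 (1.36), the coenzyme Q prenyltransferase Coq2 (1.53), and the assembly factors Cox20 (0.78) and Ndufaf3 (0.97). Lower were Etfb (-0.50), the complex I assembly factor Timmdc1 (-2.45), the mitochondrial transcription elongation factor Tefm (-0.99), the cycle enzymes Idh3g (-0.66), Mdh2 (-0.59) and Sucla2 (-0.78), and Coq9 (-0.85). Against 11% of all genes tested, those that passed were 2 higher and 2 lower of 12 subunits and carriers, 3 and 1 of 41 assembly factors, 0 and 1 of 21 regulators, 0 and 3 of 14 cycle enzymes and 1 and 1 of 13 coenzyme Q genes.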

How the data were processed

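The deposited data are RPKM values, in 1 table that the authors made, of 23416 genes in 26 libraries. RPKM divides reads by gene length and by the total of the library. The submitters' processing notes name mm10/GRCm38 as build, Subread 1.5.0, STAR 2.4.2a and SAMtools 0.1.19. They do not state settings, annotation, strand handling or gene lengths. Low RPKM values lie on whole-read steps, from which, with GENCODE M21 exon lengths, depth was estimated at 7.82 to 29.2 M reads per library (M for 10 to the power of 6). PCR copies are not told apart, so depth sets counting error only.

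Groups came from the genotype label, and replicate numbers follow the order of deposition. A gene was tested where 5 or more libraries had an RPKM of 1 or more, which left 12116. The deposited RPKM were fitted with limma 3.58.1 (R 4.3.3), as log2(RPKM + 1), over all 26 libraries, with 1 mean per group and a title style term, moderated variances (eBayes with trend and robust), two-sided tests and Benjamini-Hochberg adjustment over all genes tested in each of 7 genotype comparisons and for title style. Fold changes are on the log2(RPKM + 1) scale, which understates changes of low genes. On data simulated for the double mutant against control (12116 genes, 200 changed), the fit recovered 12% of genes changed by 1 on the log2 scale (0 false calls) and 55% of those changed by 2 (8 false calls). The noise was drawn independently for each gene, and the changed genes came from all genes tested. These rates are therefore not those of the members, which stand higher and vary together.

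Members, lists and tests were chosen with earlier results of these data known. Named throughout are Uqcrh, Ndufb8, Sdhb, Uqcrfs1 and the tested genes of isoform families; in each genotype comparison, the members that pass or, with fewer than 3, the 3 with the smallest p; for title style, up to 3 in each direction per complex; the 2 highest and the lowest level per complex; the 3 largest and smallest spreads; the most alike pair per complex; and up to 3 passing genes of each outside list. Other members are named after their values were seen, as are the tables by subunit role. Stretches of 50 bases were compared across GENCODE M21 transcripts, and promoters are RefSeq sequences for GRCm38.p6. Atp5o matched 2 annotated genes and has no length or sharing value. Python 3.11.15 with numpy 2.4.6, pandas 2.3.3, scipy 1.17.1, numba 0.67.0, Biopython 1.88 and matplotlib 3.10.9 was used for sequences and plots.

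Alternatives were no style term, number-first libraries only, only the groups compared, pseudocounts of 0.1 and 5, no filter or RPKM of at least 5, TMM or median ratio factors, quantile normalization, TPM, array weights, a neutrophil or detected-genes covariate, and leaving out each library. Some single-gene values are not reported here.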

Additional observations from a re-analysis of the deposited data

Results flagged for a closer look

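Among 208 values of the 47 named genes and of the summed complexes in each group, 23 had 1 library far from the others of its group by Dixon's test. Chance alone flags about 1 in 20 groups, and the values come from the same libraries and are not independent.

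In the control group, replicate 5, the only number-last control, was lowest for Atp5g1 (92.1 RPKM) and highest for Ndufb7 (809 RPKM), for Sdhb (690 RPKM) and for the complex II sum (1470 RPKM). These genes also differ between title styles. Control replicate 4 was highest for Atp5k (645 RPKM).

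JAK2V617F replicate 1, a number-first library, was highest of its group for 8 genes: Atp5g3 (861 RPKM), Atp5j (1116), Atp5j2 (1186), Cox6c (1087), Cox7a2 (724), Cox7b (591), Ndufc1 (574) and Uqcr11 (1262). It was also highest for the sums of complex IV (9352 RPKM) and complex V (9261 RPKM). Without it, members at unadjusted p under 0.05 between the double mutant and JAK2V617F went from 27 to 10.

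Ezh2 loss replicate 3, also number-first, was highest for Ndufb11 (440 RPKM) and Ndufb3 (542 RPKM) and lowest for Uqcc (8.59 RPKM). Among double-mutant libraries, replicate 3 was highest for Cox6c (929 RPKM) and Cox7a2l (175 RPKM), replicate 1 for Cox7a1 (8.55 RPKM, with 0.139 or less in the others) and Ndufa10 (233 RPKM), and replicate 2 was lowest for Ndufa11 (43.1 RPKM).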

How the results depend on the processing

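Counts of members past adjusted p 0.05 in the genotype comparisons were 0 under the alternatives run, except that without the title style term the double mutant gave 4 against JAK2V617F, 1 against Ezh2 loss and 2 in the interaction, and with array weights 1 against JAK2V617F. The title style count of 25 ran from 19 to 25 when 1 library was left out and from 18 to 28 otherwise. Sdhb, with a difference near 0, changed sign in the double mutant against control without the style term (-0.11), with the neutrophil (-0.0521) or detected-genes covariate (-0.0053), and over 5 of the left-out libraries (range over all of them -0.0674 to 0.1392, lowest without control replicate 3, highest without control replicate 5). In Ezh2 loss against control it did so with only the groups compared (-0.0122), TPM (-0.0178), the neutrophil (-0.14) or detected-genes covariate (-0.0067), and over 5 of the left-out libraries (range over all of them -0.0555 to 0.2491, with the same replicates at the ends). Also of opposite sign, or 0, were Atp5h in the interaction without the style term (0.98), Ndufb8 in the double mutant under quantile normalization (0.11), Cox7a1 between the single mutants in number-first libraries (0) and Uqcrh in Ezh2 loss without Ezh2 loss replicate 3 (-0.032, where left-out libraries gave up to 0.1873). In the style comparison, Ndufb7 and Ndufs8 no longer passed without control replicate 5, Ndufa4 without JAK2V617F replicate 1 or with TMM or median ratio factors, Ndufs8 and Uqcrc2 without JAK2V617F replicate 3, and Uqcrc2 without Ezh2 loss replicate 3; the detected-genes covariate lost these 4 and Ndufa8, Sdhb and Uqcrc1. Median differences of complex III and V against JAK2V617F went to -0.45 and -0.42 without JAK2V617F replicate 3. No paired analysis was possible because replicate numbers were given in accession order and pair no libraries. The style count was not run in number-first libraries or with only compared groups, nor the interaction with only compared groups. The cause of these changes was not tested. Depth limits the precision of members near 0 RPKM, such as Cox7a1.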
